A study of Homo sapiens with 4 samples.

Results

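The genes described here code for the proteasome, the protease complex that degrades ubiquitin-tagged proteins. They were chosen by name: every gene probe on the array whose gene name starts with PSMA, PSMB, PSMC, PSMD, PSME, PSMF or PSMG, and POMP. The rule found 46 genes, each with a single probe, among 14297 gene probes for 14267 genes. Of these 46, 44 code for proteasome subunits, regulators or assembly factors. The other 2 carry the letters for other reasons: PSMC3IP is a partner of PSMC3 known from meiotic recombination, and PSMAL is related to prostate-specific membrane antigen. No gene name on the array starts with PSMG.

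K562 cells, a human erythroleukemia line, were treated with AC-1041, a thalidomide analog, for 4 h and compared with control cells kept for the same 4 h. The labels call the control untreated, while the study's methods name a DMSO vehicle, and the labels give no dose. RNA of both groups was hybridized together on 4 two-colour Agilent arrays, with the treated RNA in Cy5 and the control RNA in Cy3 on arrays 1 and 2 and the dyes exchanged on arrays 3 and 4. The study's methods describe quadruplicate samples of treated and control cells and a dye swap. Neither they nor the labels say which culture is on which array. The p-values of the fit with a dye term thus measure the spread between arrays of the same dye orientation, which may be technical.

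The proteasome consists of a barrel-shaped core closed by caps. Alpha subunits (PSMA genes) form the outer rings of the core and gate the entry. Beta subunits (PSMB genes) form the inner rings, in which PSMB5, PSMB6 and PSMB7 carry the catalytic sites, and in immune cells or under interferon they are replaced by PSMB8, PSMB9 and PSMB10, which makes the immunoproteasome. The cap has a base of ATPases (PSMC genes) that unfold the substrate and non-ATPase subunits (PSMD genes) that bind ubiquitin and remove it. Other regulators can take the place of the cap, and dedicated chaperones help to assemble core and cap. In many cells a loss of proteasome activity is known to raise the transcription of subunit genes together through the factor NFE2L1.

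Every value below is a log2 ratio of treated over control on 1 array, or the estimate from the linear model (limma) over the arrays with a term for the dye orientation. A gene was called higher or lower when its p-value, adjusted over all 8852 probes tested, was under 0.05. Between 5941 and 9515 probes per channel were well above background, no spot was saturated, and the number of arrays limits the precision. Of 44 proteasome genes, 41 exceeded the background clearly on every array and in both dyes, and 43 could be tested. The testis subunit PSMA8 was above background on no array and was not tested, and the same held for PSMAL. On array 1, 43.2% of the proteasome spots, 19 of 44, were marked by the scanner software as outliers and left out, against 8.08% of all probes there. None of the proteasome spots was left out on arrays 2, 3 and 4. For the 19 genes left out on array 1, the gene's own spread thus came from arrays 3 and 4 alone. limma draws each gene's variance toward a common variance estimated over all probes tested. The SEs and p-values of these genes therefore also rested on that common variance. Of the erythroid markers used to check the label, 9 of the 11 on the array exceeded the background clearly on every array and in both dyes, and GATA1, TAL1 and KLF1 were lower in treated cells and EPOR was higher. The hepatocyte and glial markers, 5 and 2 genes, were above background on no array, whereas CD79A and KRT19 of the B cell and breast lists were above it on every array. The part of these marker differences in the proteasome values was not tested, and in RNA of whole cultures fewer cells of a kind and less RNA per cell cannot be told apart.

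The proteasome genes did not move as a block after 4 h of AC-1041. Of 43 genes tested, 4 were higher in treated cells (PSMC2, PSMD7, PSMD11 and PSMD14), 7 were lower (PSMB8, PSMB9, PSMB10, PSMD12, PSMD5, PSME3 and PSMF1) and 32 did not pass the threshold. The 11 called genes were 25.6% of those tested, while 37.3% of all 8836 genes were called on these arrays. Of the 19 proteasome genes measured on 3 arrays 2 were called, and of the 24 measured on all 4 arrays 9 were called. Of all 8836 genes, 7976 were measured on all 4 arrays, so the lower share of proteasome calls cannot be told apart from the loss of array 1. In the higher direction the share was 9.3% against 24.3% of all genes, and in the lower direction 16.3% against 13%. The median log2 ratio of the proteasome genes was -0.04 (interquartile range 0.20, lowest -0.63, highest 0.27), beside 0.02 (interquartile range 0.34) for all genes. A change within 0.3 on the log2 scale was measured for 38 of 43 genes, or 88.4%, beside 75.8% of all genes. No proteasome gene changed by 1.8-fold or more, as 2.66% of all genes did. For 31 of the 32 genes that did not pass, the 95% interval lay within 0.5 of 0 on the log2 scale, the exception being PSMC3.

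The counts depended on single arrays and on the dye term. Without array 4 there were 0 higher and 2 lower genes, and without array 3 there were 0 higher and 4 lower genes. The calls over all genes fell too, to 1005 higher and 283 lower of 7986 without array 4, and to 1239 and 438 of 8000 without array 3. Those 2 fits, and the one without array 2, could test only 24 of the proteasome genes, because the other proteasome genes tested had been left out on array 1. Without the dye term limma called 0 of 43 genes in either direction, and at an unadjusted p under 0.05 it had 0 higher and 2 lower genes. Over all 8921 genes tested in that fit, only 52 were called higher and 4 lower.

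The plot of estimates by class shows where the called genes lay. In the core without the immunoproteasome none of 14 genes tested was called, and their 95% intervals reached from -0.30 to 0.43, although PSMA1 and PSMB1 passed without array 2. Only 4 of these 14 genes were measured on all 4 arrays, against 11 of 17 in the cap and 3 of 3 in the immunoproteasome. The part of the missing array in the counts by class was not tested. In the cap, 4 of 17 genes were higher and 1 was lower. Of 5 regulators 2 were lower, and of 4 assembly chaperones 1 was lower. Beside these counts, 24.3% of all genes were called higher, 13% lower and 37.3% in either direction. The class medians were 0.03 for the alpha ring, -0.04 for the beta ring, -0.35 for the immunoproteasome, 0.01 for the cap ATPases, 0.08 for the cap non-ATPases, -0.12 for the regulators and -0.11 for the assembly chaperones. The median of the beta ring was 0.18 to 0.29 without array 2, 3 or 4, where PSMB1 was its only gene tested, and that of the alpha ring was -0.13 with each array centred on its median. These differences between classes are descriptions and were not tested.

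The alpha ring, whose N-terminal tails form the gate of the core, gave no call among 7 genes tested. Estimates ran from -0.10 for PSMA4 to 0.16 for PSMA1. In PSMA1 the log2 ratio was 0.36, 0.29 and 0.42 on arrays 1, 3 and 4 but -0.43 on array 2, which stood apart from the others. With the outlier spots kept, which changes the normalization of array 1, the values on arrays 1 to 4 were 0.02, -0.47, 0.36 and 0.47. Array 1 then lay between array 2 and the arrays of the other orientation. Without array 2 the estimate of PSMA1 was 0.36 and passed (limma adjusted p = 0.0025).

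In the beta ring none of 7 genes passed the threshold in the full fit. PSMB1, a structural beta subunit, was the exception at an unadjusted p under 0.05. Its log2 ratio was 1.56 and 1.25 on arrays 1 and 2 and -1.05 and -0.92 on arrays 3 and 4, so that its sign followed the dye. The estimate over the 4 arrays was 0.21 (SE 0.075, limma adjusted p = 0.057), and its dye term had the smallest adjusted p of all proteasome genes (1.3e-05). Without array 2 the estimate was 0.29 and passed (adjusted p = 0.0093).

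The catalytic subunits of the constitutive core showed no called change. PSMB5, the chymotrypsin-like subunit, had log2 ratios of 0.39 on array 2, -0.55 on array 3 and -0.45 on array 4. It was higher in treated cells in one dye orientation and lower in the other, and the estimate was -0.05 (95% interval -0.25 to 0.14, limma adjusted p = 0.64). PSMB6, the caspase-like subunit, gave -0.17, 0.13 and -0.11 on the same arrays, with an estimate of -0.08 (-0.29 to 0.14, adjusted p = 0.54). PSMB7, the trypsin-like subunit, gave 0.05, -0.04 and -0.09, all close to 0, with an estimate of -0.01 (-0.20 to 0.19, adjusted p = 0.94). The spots of these 3 genes on array 1 were among those left out.

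The immunoproteasome subunits were called lower in treated cells, 3 of 3, beside 13% of all genes. Only PSMB8 had a mean below 0 in both dye orientations. PSMB8, the counterpart of PSMB5, is encoded in the major histocompatibility complex (probe at chr6:32918001-32918468, hg18). Its log2 ratio was -0.30, -0.17, -0.37 and -0.63 on arrays 1 to 4. It was lower on all 4 arrays, with an estimate of -0.37, or 0.775-fold (SD over arrays 0.20, n = 4, SE 0.073, limma adjusted p = 0.0052). Its dye term did not pass (adjusted p = 0.15), and its control channel was well above background on 3 arrays.

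PSMB9, the counterpart of PSMB6, is a neighbour of PSMB8 (probe at chr6:32931896-32931955, hg18). Its log2 ratio was 0.25 and -0.08 on arrays 1 and 2, and -0.65 and -0.87 on arrays 3 and 4. The lower values were thus those with the treated RNA in Cy3, and the arrays with the treated RNA in Cy5 lay on both sides of 0. The estimate was -0.34 (SD 0.51, n = 4, SE 0.080, adjusted p = 0.012) and the dye term passed as well (adjusted p = 0.0025).

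PSMB10, the counterpart of PSMB7, lies on another chromosome (probe at chr16:66526048-66526232, hg18). Its log2 ratio was 0.005 and 0.14 on arrays 1 and 2, and -0.62 and -0.93 on arrays 3 and 4. Its pattern was that of PSMB9, with values at or above 0 in one orientation and well below it in the other. The estimate was -0.35 (SD 0.51, n = 4, SE 0.076, adjusted p = 0.0078), with a dye term that passed (adjusted p = 0.0018).

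All 3 calls were lost without array 4, where the adjusted p-values were 0.085 for PSMB8, 0.14 for PSMB9 and 0.11 for PSMB10 at estimates of -0.30, -0.28 and -0.27. They were also lost without normalization within arrays, where the estimates were -0.20, -0.23 and -0.22 (adjusted p = 0.44, 0.37 and 0.41), and without the dye term (adjusted p = 0.27, 0.58 and 0.56).

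**Figure D1:**
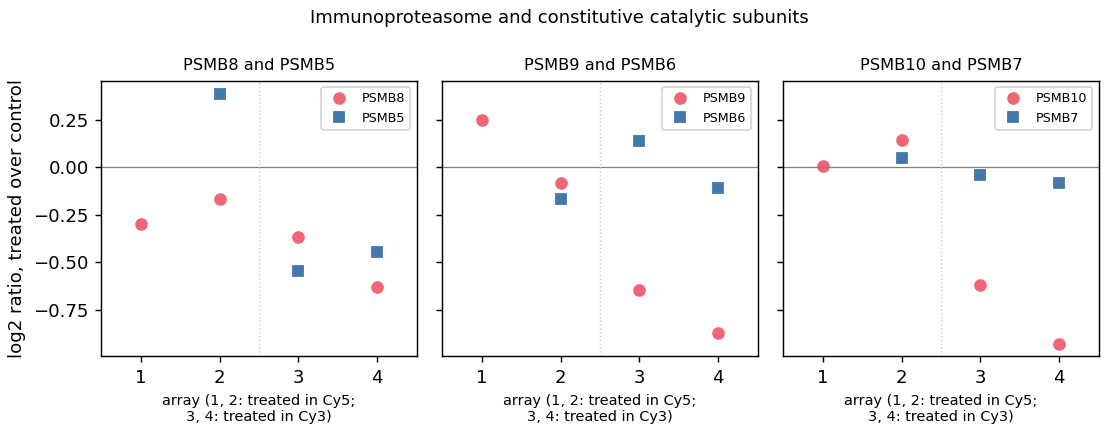
Log2 ratio of treated over control (vertical axis) on arrays 1 to 4 (horizontal axis) of each immunoproteasome subunit (circles) and the constitutive subunit it replaces (squares), 1 point per array. The squares are missing on array 1, where the spots were left out; PSMB9 and PSMB10 reach -0.87 and -0.93 on array 4, while PSMB6 and PSMB7 stay between -0.17 and 0.13.

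Set against the subunit it replaces, each immunoproteasome gene had the lower log2 ratio on 2 of the 3 arrays that measured both, as the plot of the catalytic subunits shows. The difference in log2 ratio between PSMB8 and PSMB5 was -0.55, 0.18 and -0.18 on arrays 2, 3 and 4. Between PSMB9 and PSMB6 it was 0.08, -0.78 and -0.76. Between PSMB10 and PSMB7 it was 0.10, -0.58 and -0.84. The exception was array 3 for the first pair and array 2 for the other pairs, and the differences were not tested. Array 2 was the only one of these arrays with the treated RNA in Cy5, so the other pairs split by dye orientation.

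Promoter windows are shown for the genes of the immunoproteasome and for PSME2, because PSMB8, PSMB10 and PSME2 hold the letters of an interferon-stimulated response element, and for PSMD12, the gene with the lowest estimate. The sequences are from RefSeq on GRCh38.p14, each 60 bases of the gene's strand, 5′ to 3′, with the matched letters in capitals. The first 3 match the response element, searched as 2 copies of GAAA that are 2 bases apart, on either strand, and the last 2 match TGACNNNGC, the core of the antioxidant response element, on either strand. They lie at chr6:32844042-32844101 (minus strand) for PSMB8, chr16:67936851-67936910 (minus) for PSMB10, chr14:24146611-24146670 (minus) for PSME2, chr6:32854013-32854072 (plus) for PSMB9 and chr17:67366714-67366773 (minus) for PSMD12.
PSMB8: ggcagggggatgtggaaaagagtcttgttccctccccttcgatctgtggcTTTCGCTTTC
PSMB10: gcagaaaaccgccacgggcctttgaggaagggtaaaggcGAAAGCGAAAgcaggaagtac
PSME2: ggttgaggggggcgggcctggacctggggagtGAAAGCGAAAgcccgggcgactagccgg
PSMB9: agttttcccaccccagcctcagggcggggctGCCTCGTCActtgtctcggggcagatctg
PSMD12: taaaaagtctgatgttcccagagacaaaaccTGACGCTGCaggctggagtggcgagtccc

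RefSeq windows of 300 bases, 250 before and 50 after the start, were given for 39 of the 44 proteasome genes, 47 windows in all. The interferon-stimulated response element was found on either strand in 6 of the 47 windows (12.8%), in PSMA4, PSMB4, PSMB8, PSMB10, PSME1 and PSME2, and in 3.57% of all 35114 windows. This motif was added after the expression values were seen. The 6 genes did not move alike: PSMB8 and PSMB10 were lower, while PSMA4 (-0.10), PSMB4 (-0.04), PSME1 (-0.12) and PSME2 (-0.07) did not pass. TGACNNNGC was found in 13 windows (27.7%), beside 13.3% of all windows, and its genes were PSMB9, PSMD5 and PSMD12, which were lower, and PSMA4, PSMB3, PSMC4, PSMC5, PSMD1, PSMD3, PSMD9, PSME1, PSME2 and PSME4, which did not pass. The CCAAT box was found in 38.3% of the windows and in 34.6% of all, the C/EBP-ATF element TGATGNAA in 1 window, that of PSMF1 (3.62% of all), and the heat shock element GAANNTTC in 0 of 47 (6.77% of all). A match of letters is a description of the window and not of binding.

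In the base of the cap, 1 of 6 ATPases was higher. PSMC2 had log2 ratios of 0.10, 0.30, 0.29 and 0.33 on arrays 1 to 4. All were above 0, and the estimate was 0.25, or 1.19-fold (SD 0.10, n = 4, SE 0.068, limma adjusted p = 0.019). With the outlier spots kept, which changes the normalization of array 1, its value there was -0.25 and the call was lost (estimate 0.19, adjusted p = 0.16). The call was also lost without array 3 (0.27, adjusted p = 0.11) and without array 4 (0.24, adjusted p = 0.16). PSMC3 had the lowest ATPase estimate, -0.27, with -0.63, -0.39 and -0.25 on arrays 1, 3 and 4 but 0.19 on array 2, and did not pass (adjusted p = 0.11). Without array 2 its estimate was -0.47 and passed (adjusted p = 0.00039). The other ATPases lay between -0.10 and 0.10.

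Among the 11 non-ATPase subunits of the cap, 3 were higher and 1 was lower, beside 24.3% and 13% of all genes. All 4 belong to the lid, the part that removes ubiquitin, as do most of the 11 genes. PSMD14, the deubiquitinating enzyme of the lid, had log2 ratios of 0.49, 0.02 and 0.07 on arrays 2, 3 and 4. Because array 1 was left out, its own spread came from arrays 3 and 4 alone, and its SE also rested on the common variance of the probes. The largest value was that of array 2, the only one left with the treated RNA in Cy5, and the estimate was 0.27 (SD 0.26, n = 3, SE 0.083, limma adjusted p = 0.040). PSMD7, its inactive partner, had 0.24, 0.37, 0.18 and 0.22 on arrays 1 to 4, the most even values of the called genes, with an estimate of 0.25 (SD 0.084, n = 4, SE 0.066, adjusted p = 0.017).

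PSMD11, a scaffold subunit of the lid, had log2 ratios of -0.26, 0.76 and 0.75 on arrays 2, 3 and 4. It was thus lower in the first orientation and higher in the second, and the estimate of 0.25 (SD 0.59, n = 3, SE 0.083, adjusted p = 0.049) lay just under the threshold with a dye term that passed (adjusted p = 0.0016). With array 1 left out for PSMD11 too, array 2 had no second array of its orientation, and the gene's own spread came from arrays 3 and 4 alone. These 2 values were nearly equal, so the SE came mostly from the common variance of the probes. For the same reason PSMD11 and PSMD14 could not be tested without array 2, 3 or 4. The call of PSMD7 was lost without array 3 (0.26, adjusted p = 0.10) and without array 4 (0.24, adjusted p = 0.14). With each array centred on its median in place of loess, none of these 3 genes passed, at 0.10 for PSMD14, 0.18 for PSMD7 and 0.17 for PSMD11 (adjusted p = 0.49, 0.12 and 0.23).

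PSMD12, another scaffold subunit of the lid, had the largest change of any proteasome gene tested (probe at chr17:62764781-62764840, hg18). Its log2 ratio was -0.69 and -1.43 on arrays 1 and 2, and -0.12 and -0.29 on arrays 3 and 4. It was lower on all 4 arrays, more so where the treated RNA was in Cy5, and array 2 was the lowest. The estimate was -0.63, or 0.645-fold (SD 0.58, n = 4, SE 0.112, limma adjusted p = 0.0030), with a dye term that passed (adjusted p = 0.011). Leaving out each array in turn gave estimates from -0.82 without array 1 to -0.45 without array 2, all past the threshold, and the call was lost without the dye term (adjusted p = 0.32).

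The other 7 non-ATPase subunits did not pass, with estimates from -0.10 for PSMD1 to 0.14 for PSMD8. Among them PSMD4, a ubiquitin receptor, was at -0.07, and PSMD2 and PSMD1, the large scaffolds of the base, were at -0.05 and -0.10.

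**Figure D2:**
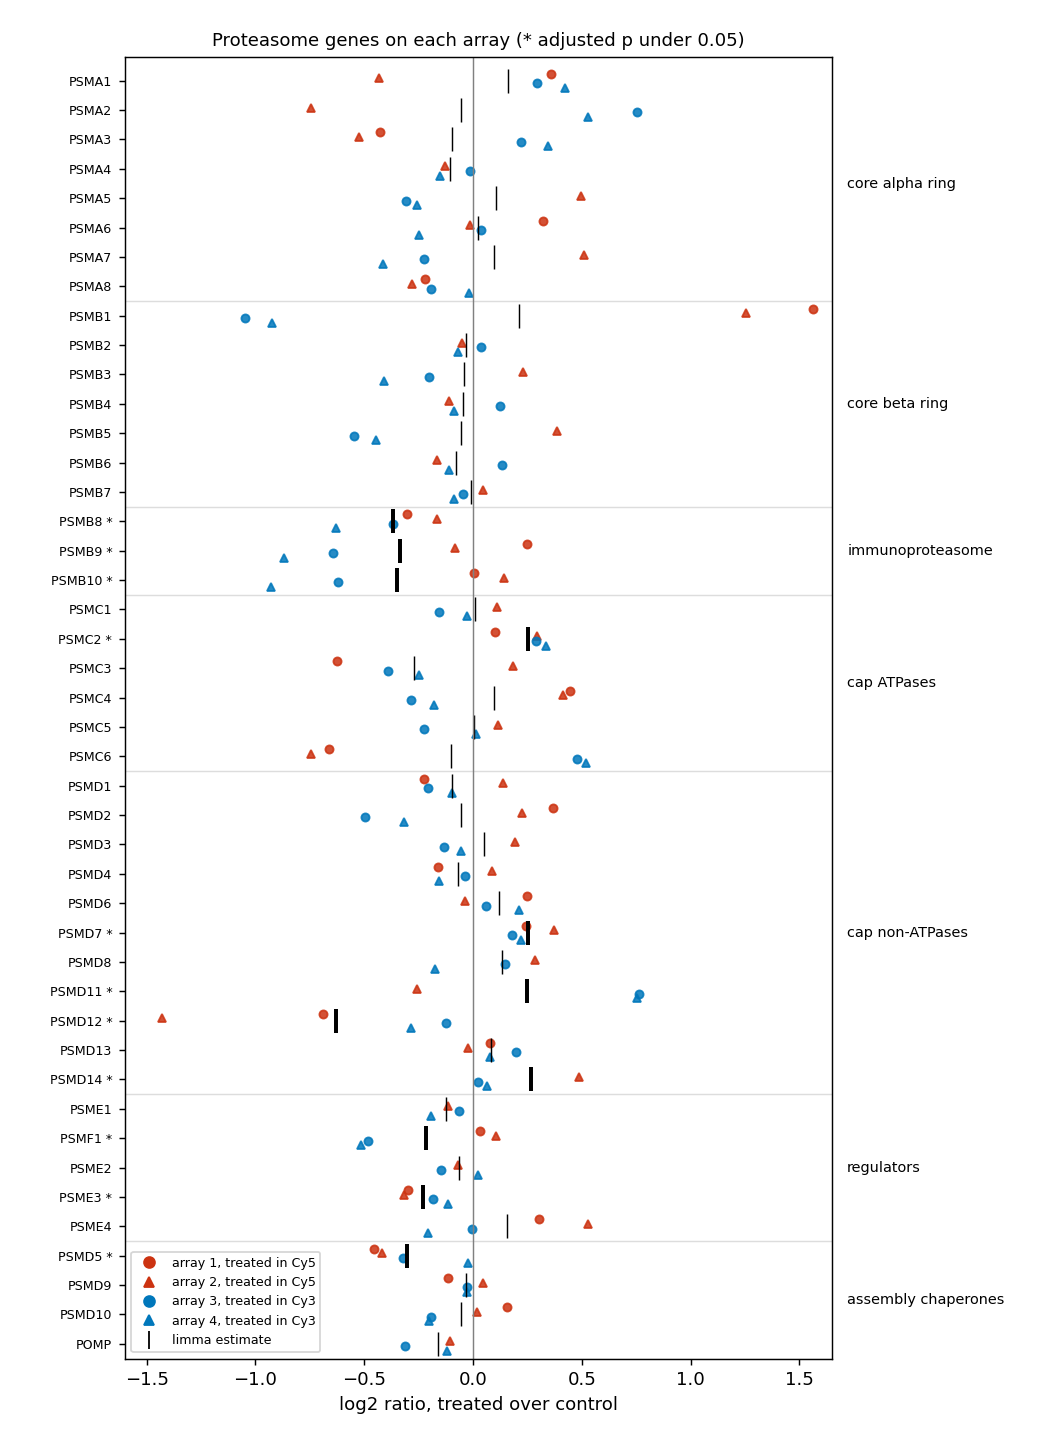
Log2 ratio of treated over control (horizontal axis) of all 44 proteasome genes on each array, by class. Red marks are the arrays with the treated RNA in Cy5 and blue marks those with it in Cy3, black bars are limma estimates (heavy bars and stars: adjusted p under 0.05), and PSMA8 was not above background and has no estimate. PSMB8, PSMC2, PSMD7, PSMD12, PSME3 and PSMD5 lie on one side of 0 on all 4 arrays, and the red and blue marks of PSMB1 lie on opposite sides, from 1.56 to -1.05.

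Of the regulators, which include activators that can open the core in place of the cap, the activator PSME3 and the inhibitor PSMF1 were lower. PSME3, the nuclear activator subunit, had log2 ratios of -0.30, -0.32, -0.19 and -0.12 on arrays 1 to 4. All 4 were below 0, and the estimate was -0.23, or 0.853-fold (SD 0.095, n = 4, SE 0.064, limma adjusted p = 0.023). PSMF1 had 0.03 and 0.11 on arrays 1 and 2, and -0.48 and -0.51 on arrays 3 and 4. Only the second orientation was lower, and the estimate was -0.21 (SD 0.33, n = 4, SE 0.064, adjusted p = 0.031) with a dye term that passed (adjusted p = 0.0056). Both calls were lost without array 3 (adjusted p = 0.16 for PSME3 and 0.15 for PSMF1, at -0.21 and -0.22) and without array 4 (0.14 and 0.20, at -0.25 and -0.21). Without normalization within arrays the estimates were -0.03 and -0.06.

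PSME1 and PSME2, the activator pair that interferon induces, did not pass, with estimates of -0.12 (95% interval -0.32 to 0.08) and -0.07 (-0.27 to 0.14). PSME4, a large activator of a single chain, was at 0.16 (-0.01 to 0.32, limma adjusted p = 0.13). It passed without array 1 (0.21, adjusted p = 0.033) and with each array centred on its median (0.27, adjusted p = 0.041).

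Of the assembly chaperones, PSMD5, which helps to build the base of the cap, was lower. Its log2 ratio was -0.45, -0.42, -0.32 and -0.02 on arrays 1 to 4. The first 3 arrays were alike and array 4 was near 0, and the estimate was -0.30, or 0.81-fold (SD 0.20, n = 4, SE 0.073, limma adjusted p = 0.013). Without array 3 the estimate was -0.23 and did not pass (adjusted p = 0.13). PSMD10, another base chaperone, was at -0.05, PSMD9 at -0.03 and POMP, the maturation factor of the core, at -0.16, and none of these passed. With each array centred on its median in place of loess, POMP was at -0.30 and passed (adjusted p = 0.040). The core chaperones PSMG1 and PSMG2, listed on the array under the older names DSCR2 and TNFSF5IP1, were at 0.17 (adjusted p = 0.15) and 0.16 (adjusted p = 0.12).

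**Figure D3:**
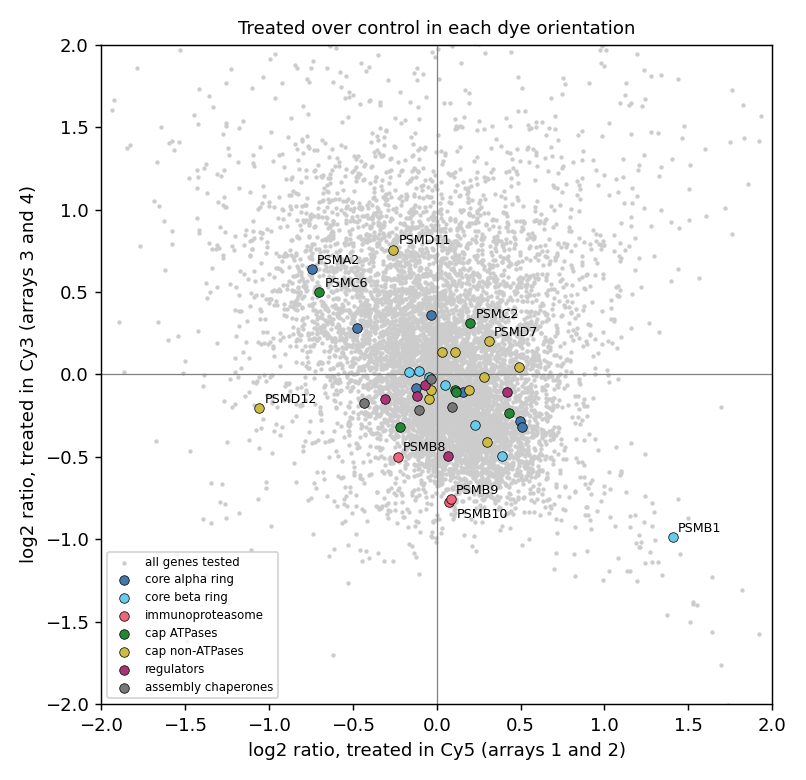
Mean log2 ratio of treated over control with the treated RNA in Cy5 (horizontal axis, arrays 1 and 2) against that with it in Cy3 (vertical axis, arrays 3 and 4), 1 point per gene, all 8836 genes in grey and the proteasome genes by class; 61 genes lie outside the axes. For the 19 proteasome genes left out on array 1, the horizontal value is that of array 2 alone. Genes of like change in both orientations lie at the lower left and upper right, such as PSMD12 and PSMC2, whereas PSMB1 lies at 1.41 and -0.99.

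The dye orientation split many of these genes, as the plot of the orientations shows. The sign of the mean log2 ratio differed between the orientations in 25 of 43 genes. For the 19 genes left out on array 1, array 2 alone stood for the first orientation. Across the proteasome genes, arrays of the same orientation gave a correlation of r = 0.76 (arrays 1 and 2, 25 genes) and 0.89 (arrays 3 and 4, 44 genes), and arrays of opposite orientation gave r from -0.48 to -0.35. Over all probes tested these were 0.81, 0.94 and -0.29 to -0.12. The points are genes that share labelling and scanning, so these values are descriptions. The dye term passed in 16 of 43 proteasome genes, or 37.2%, beside 58.2% of all genes.

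Of the 11 called genes, 7 had the same sign in both orientations and 6 had it on all 4 arrays: PSMB8, PSMC2, PSMD7, PSMD12, PSME3 and PSMD5. These 6 were all the proteasome genes with such an order among 24 measured on all 4 arrays, or 25%, beside 25.9% of all genes. With 4 arrays an exact two-sided sign-flip test of 1 gene cannot give a p below 0.125. The median over the proteasome genes was 0.03 on arrays 1 and 2, -0.13 on array 3 and -0.11 on array 4.

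Among other genes of the pathway, 28 were listed, such as receptors, deubiquitinases, shuttles, transcription factors and the core chaperones PSMG1 to PSMG4. Of these 20 were on the array and 19 could be tested, PSMG1 and PSMG2 included. Of the 19, 2 were higher and 3 were lower, with a median of -0.01. Of all genes, 24.3% were higher and 13% lower. NFE2L1, the factor that drives subunit genes when the proteasome fails, had log2 ratios of -0.41, -0.35, 0.81 and 0.83 on arrays 1 to 4. It was lower in one orientation and higher in the other, with an estimate of 0.22 (SE 0.064, limma adjusted p = 0.026). NFE2L2, its relative in the oxidative stress response, had -0.78, -0.67, 0.13 and -0.08, with an estimate of -0.35 (SE 0.070, adjusted p = 0.0051), and it was well above background on only 2 arrays in the treated channel. UBQLN1, a shuttle for ubiquitinated proteins, had -0.57, 0.27, 1.14 and 0.71, so that array 1 was opposed to the others, and an estimate of 0.39 (SE 0.13, adjusted p = 0.048).

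USP14, a deubiquitinase bound to the cap, had -0.49, -0.73, 0.08 and 0.15 and an estimate of -0.25 (SE 0.070, adjusted p = 0.025), and UBE3C, a ubiquitin ligase bound to it, had 0.09, 0.25, -0.54 and -0.60 and an estimate of -0.20 (SE 0.067, adjusted p = 0.045). None of the 5 had the same sign on all 4 arrays, and the dye term passed in each. The calls fell to 0 higher and 1 lower without array 3 and to 0 without array 4, and the calls over all genes fell in the same fits. The ubiquitin receptor ADRM1 (-0.01) and VCP (-0.04), which extracts ubiquitinated proteins, did not pass.

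PSMC3IP, which matches the name but is no proteasome gene, had log2 ratios of 0.14, 0.15, 0.45 and 0.77 on arrays 1 to 4. It was higher on all 4, with an estimate of 0.38, or 1.3-fold (SE 0.074, limma adjusted p = 0.0048), above every proteasome gene tested.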

How the data were processed

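Treated and control K562 RNA was measured on 4 two-colour arrays, for which the authors used Agilent Feature Extraction (version 9.5.1.1 in the headers) on an array design of hg18. The authors deposited unnormalized intensity values of each spot and its background in both channels, which were used here. Feature Extraction's own corrected intensity values and log10 ratio (Cy5 over Cy3) are in the deposited files too; the log10 values in the authors' series table equal that ratio within 0.001 for 99.9% or (array 2) 100% of probes after turning the sign of arrays 3 and 4 to treated over control (column medians 0). Both were alternatives only.

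Here the background was corrected with normexp (offset 50), control spots were excluded, and each array was normalized by loess (span 0.3). Spots marked as non-uniform or population outliers were left out. The test was run on 8852 probes, which the software placed well above background, in either channel, on 2 or more arrays. After outlier spots were left out, a probe also needed values in both dye orientations and on more than 2 arrays. limma (3.58.1; R 4.3.3) fitted treatment and dye orientation, and p-values were adjusted by Benjamini-Hochberg over these probes. A gene was represented by its brightest probe in counts over all genes. Gene names came from RefSeq for 12002 of 14297 probes and otherwise from the files. All 4 arrays lay on the same slide. The script was tested on simulated data. Every proteasome gene could be named; values on each array are given for the catalytic and immunoproteasome subunits, the called genes and up to 5 called genes of the list of other pathway genes; array values of PSMA1, PSMB1, PSMC3 and PSMC3IP were added after their values were seen. Members and lists were chosen with earlier results of these data known. Alternatives concerned background, normalization, filters, outlier spots, the dye term, variance models, pairings of arrays, the threshold and each array in turn. Some marker genes are not reported here.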

Additional observations from a re-analysis of the deposited data

Results flagged for a closer look

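PSMA1, an alpha ring subunit, was singled out because array 2 lay far from the other arrays. Its log2 ratios were 0.36, -0.43, 0.29 and 0.42 on arrays 1 to 4, and the gap of array 2 to its nearest neighbour was 0.846 of the whole range (Dixon's test). It was the only one of 25 proteasome genes with values on all 4 arrays, PSMA8 included, and chance flags about 1 in 20. With the outlier spots kept, array 1 was at 0.02 and array 2 at -0.47, so the distance of array 2 from the others depended on the processing. The cause was not tested.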

How the results depend on the processing

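None of the 11 called genes changed direction under any alternative that could be fitted, with or without the shift of the all-gene median. Many alternatives left the estimate as it was and could change only the p-value. These were the filters on dim probes, the intensity-dependent prior, array weights, the 0.01 threshold and the mean of all probes, as each gene had a single probe. For genes measured on all 4 arrays they included the pairings and the fit without the dye term. Calls were kept in 18 of 19 alternatives for PSMD12, 15 of 18 for PSMB8, 16 and 15 of 19 for PSMB10 and PSMB9, 13 or 14 of 19 for PSMD5, PSME3 and PSMF1, 12 of 19 for PSMD7, 10 of 19 for PSMC2 and 5 of 14 for PSMD11 and PSMD14. The numbers of proteasome genes higher and lower (4 and 7) became 1 higher with the software's processed signals, median centring, outlier spots kept or the series table; 2 higher with an intensity-dependent prior, array weights or arrays paired 1 with 4 and 2 with 3; 0 higher and 1 lower without normalization within arrays; 0 and 0 without the dye term; and 0 and 3 at an adjusted p under 0.01. Leaving out each array gave 0 to 5 higher and 2 to 8 lower.

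Of all genes, 2150 were higher and 1150 lower, 65.2% of calls being higher. Median centring gave 596 lower (79.8% higher), no normalization 136 lower (92.8% higher), both channels above background 1338 higher, no dye term 52 and 4, the 0.01 threshold 1349 and 468, and leaving out arrays 1005 to 2584 higher and 283 to 1467 lower. The all-gene median of 0.017 became -0.013 with processed signals, -0.010 with the series table, 0.048 with median centring, -0.0065 with no filter on dim probes and 0.138 without normalization, a shift of 0.121 against which the proteasome median was -0.107 (-0.149 with median centring and -0.061 in the fit reported).

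The other pathway genes higher (2) became 1 with no background subtraction, processed signals, the series table, no normalization, no filter or outlier spots kept, and 0 without the dye term or at 0.01; those lower (3) became 0 without normalization or the dye term and 1 at 0.01; leaving out arrays gave 0 to 3 of each. The median of the cap non-ATPases (0.084) was -0.054 under both pairings of arrays and -0.037 to 0.050 leaving out arrays; that of the regulators (-0.124) was -0.224 to -0.124. The beta ring median (-0.040) was 0.210 under both pairings and -0.040 to 0.288 leaving out arrays, resting on PSMB1 alone in all of these but the fit without array 1, and -0.144 with median centring; the alpha ring median (0.025) was -0.127 with median centring. Pairing arrays or leaving out array 2, 3 or 4 reduced the genes tested from 43 to 24. Otherwise the cause of these differences was not tested.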
